A study of Homo sapiens with 6 samples.

Results

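Clusters of eCLIP reads on the RNAs of 8 genes with very long coding regions were examined, namely DYNC1H1, PLEC, AHNAK, FASN, MKI67, PRKDC, AGRN and HSPG2. A cluster was taken as a member when it overlapped the GRCh37 span of one of these genes by at least 1 nt on the strand of the gene. This gave 592 of the 205520 clusters deposited, of which 252 of 102843 came from FLAG-Angel1 replicate 1, 276 of 96960 from FLAG-Angel1 replicate 2 and 64 of 5717 from the FLAG-only control. The rule names these genes for their long coding regions and uses no measured value.

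In eCLIP, UV light links RNA to protein in living cells, fragments held by a chosen protein are precipitated with an antibody and sequenced (the IP), and fragments of the same size from lysate that was not precipitated serve as input. All 6 libraries, an IP and an input from each of 2 FLAG-Angel1 replicates and 1 control, came from Flp-In T-REx HEK293 cells (HEK293 in the labels), derived from human embryonic kidney and built to take up a transgene at a fixed site, and the labels do not say whether the replicates were separate cultures. The labels give every library 24 h of induction with 5 ng/mL tetracycline and UV light of 254 nm at 400 mJ/cm2. They also give the genotype FLAG-Angel1 for the FLAG-only libraries, whereas the study describes the control as the parental line, which makes no FLAG fusion protein. The study further mentions 1 sample kept from UV light, and the labels mark no library as that sample. The tagged Angel1 came from a tetracycline-regulated promoter in stable lines, at a level the study puts close to that of endogenous Angel1. An mRNA with a very long coding region carries many ribosomes along most of its length, and a ribosome that halts on it can be met by quality control factors that free the ribosome, degrade the nascent peptide and remove the mRNA. Angel1 belongs to a family of RNA-processing enzymes related to deadenylases, and the study asked which RNAs it contacts and whether these contacts lie near ribosome stalls.

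Each deposited cluster carries the authors' log2 fold of the IP against its input, and a P that scores this fold. The deposited lists hold no reads. Where P is below 1, the fold and the P together fix the IP and input reads of nearly every cluster. Where P is 1, the fold gives a minimum of reads only. P is 1 for 56236 of 102843 clusters of replicate 1, 4714 of 96960 of replicate 2 and 157 of 5717 of the control. The inferred reads are given below. Inferred library sizes were 3396701 IP and 722085 input reads for replicate 1, 2543630 and 2812210 for replicate 2, and 209788 and 3249250 for the control. One IP read over 1 input read thus stands for a log2 fold of -2.23 in replicate 1, 0.14 in replicate 2 and, for the control, 3.95, and an input value of 1 may be a minimum set by the pipeline. Reads carried by neighboring clusters can be the same reads, since clusters of at most 5 nt held up to 118 IP reads, so that sums over clusters count some reads more than once. A cluster is called enriched here when it passed the authors' P threshold of 0.05 with a log2 fold above 0. Intervals are Wilson 95% intervals for shares and exact binomial or Poisson 95% intervals for folds and reads, and they cover counting error only. No test between libraries was made, because the control is 1 library and the clusters of a gene are not replicates.

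Across the 8 genes, 121 of the 252 clusters of replicate 1 were enriched (48.0%, interval 41.9% to 54.2%), against 11.7% of all clusters of that library. In replicate 2, 260 of 276 were enriched (94.2%, interval 90.8% to 96.4%), against 40.7% of all clusters. In the control, 62 of 64 were enriched (96.9%, interval 89.3% to 99.1%), against 91.8% of all control clusters. By inferred reads, the clusters of the 8 genes were deeper than those of the library at large in both FLAG-Angel1 replicates. Their median was 56 IP reads in replicate 1 and 37 in replicate 2, where the medians over all clusters were 11 and 8. Both medians were 4 in the control. In replicate 1 both medians are lower bounds, since reads are a minimum for 30 of the 252 clusters and for 56236 of all 102843. How far the depths differ in replicate 1 is therefore not known.

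When only clusters with at least 30 IP reads were compared, the difference from the library at large was smaller. In replicate 1, 120 of 192 such clusters in the 8 genes were enriched (62.5%, interval 55.5% to 69.0%), beside 51.1% of all clusters with as many reads. The median log2 fold of these clusters was 1.47 in the 8 genes and 1.49 over the library. In replicate 2, all 172 such clusters were enriched (interval 97.8% to 100%), beside 96.9% of all, and the median log2 fold was 3.01 in the 8 genes and 2.43 over the library. Clusters with a P of 1, none of them enriched, entered with their minimum of reads, so that deeper ones can be missing from this set. In replicate 1 they were 56236 of all 102843 clusters and 30 of the 252 in the 8 genes. Its shares and medians at 30 IP reads are therefore not on an equal footing. Without the requirement of 30 IP reads, the median log2 fold in the 8 genes was 1.35 in replicate 1, 2.85 in replicate 2 and, for the control, 3.22. Over all clusters of the respective libraries it was 0.57, 1.73 and 5.20. The control clusters of the 8 genes thus had a lower median fold than control clusters in general. Those of both FLAG-Angel1 IPs had a higher one than their libraries. In the control the median input reads were 7.5 in the 8 genes and 2 over all clusters, at a median of 4 IP reads in both. With at least 30 IP reads, the median fold of replicate 1 was not higher in the 8 genes (1.47 beside 1.49).

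DYNC1H1, PLEC and AHNAK encode proteins of the cytoskeleton and the cell cortex. DYNC1H1 encodes the heavy chain of cytoplasmic dynein, the motor that carries cargo toward the minus ends of microtubules. Its span, on the plus strand of chromosome 14 from 102430865 to 102517135, held 48 clusters in replicate 1, of which 35 were enriched, 49 in replicate 2, all enriched, and 15 in the control, all enriched. The median log2 fold was 1.69 in replicate 1 with a range of -0.14 to 2.94, 3.28 in replicate 2 with a range of 2.66 to 5.50, and 2.95 in the control with a range of 2.08 to 3.54. The ranges of the replicates therefore overlapped over a narrow stretch only. DYNC1H1 had the highest median fold of the 8 genes in each FLAG-Angel1 replicate, whereas in the control only PRKDC had a lower one. Its clusters summed to 1124 IP reads per 1000000 library reads (RPM) in replicate 1, 1186 in replicate 2 and, for the control, 291.

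PLEC encodes plectin, a linker that ties intermediate filaments to other parts of the cytoskeleton and to cell junctions. On chromosome 8 from 144989321 to 145050913 on the minus strand, it held 27 clusters in replicate 1 (11 enriched), 23 in replicate 2 (21 enriched) and 1 in the control. In PLEC the fold had a log2 median of 1.52 in replicate 1 and 2.81 in replicate 2. Its clusters covered 2154 nt with 358 RPM in replicate 1 and 1531 nt with 168 RPM in replicate 2. The highest fold of any member cluster in replicate 1 lay here, 51.0 kb from the 5′ end, with 126 IP reads over an input value of 1 and a log2 fold of 4.74 (interval 2.24 to 10.06). No cluster of replicate 2 or of the control overlapped it. The single control cluster of PLEC, on chromosome 8 from 144995832 to 144995886, rested on 3 IP and 2 input reads with a log2 fold of 4.54, and a replicate 1 cluster of 25 IP reads over it was not enriched.

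AHNAK encodes desmoyokin, a giant protein of repeated segments found beneath the plasma membrane. Its span on chromosome 11 from 62201016 to 62314332 on the minus strand held 14 clusters in replicate 1, 21 in replicate 2 and, for the control, 2. No AHNAK cluster was enriched in replicate 1, while 20 were in replicate 2 and both were in the control. The replicate 1 clusters had 9 to 41 IP reads over 1 to 4 input reads. The fewest IP reads that passed the threshold anywhere in that library were 27 over 1 input read, 38 over 2, 45 over 3 and 50 over 4, and the inferred reads of every AHNAK cluster of replicate 1 lay below these numbers, 2 of the 14 being a minimum only. Their log2 folds all lay above 0, from 0.77 to 2.09 with a median of 1.11. In replicate 2 the folds ranged from 1.52 to 4.14 with a median of 2.95, and the fewest passing IP reads over 1 input read were 7.

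The control clusters of AHNAK abutted each other. The first, from 62301394 to 62301435, had 8 IP and 2 input reads with a log2 fold of 5.95, and the second, from 62301436 to 62301466, had 8 IP and 1 input reads with a log2 fold of 6.95, the highest of any member in the control. Both lay under the AHNAK clusters with the most IP reads in each FLAG-Angel1 library, 41 in replicate 1 and 45 in replicate 2. This place held 38.1 RPM in the control (interval 16.5 to 75.1), 12.1 in replicate 1 (interval 8.66 to 16.4) and 17.7 in replicate 2 (interval 12.9 to 23.7). The control was thus the highest of the libraries there, although its interval overlapped that of replicate 2.

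**Figure D1:**
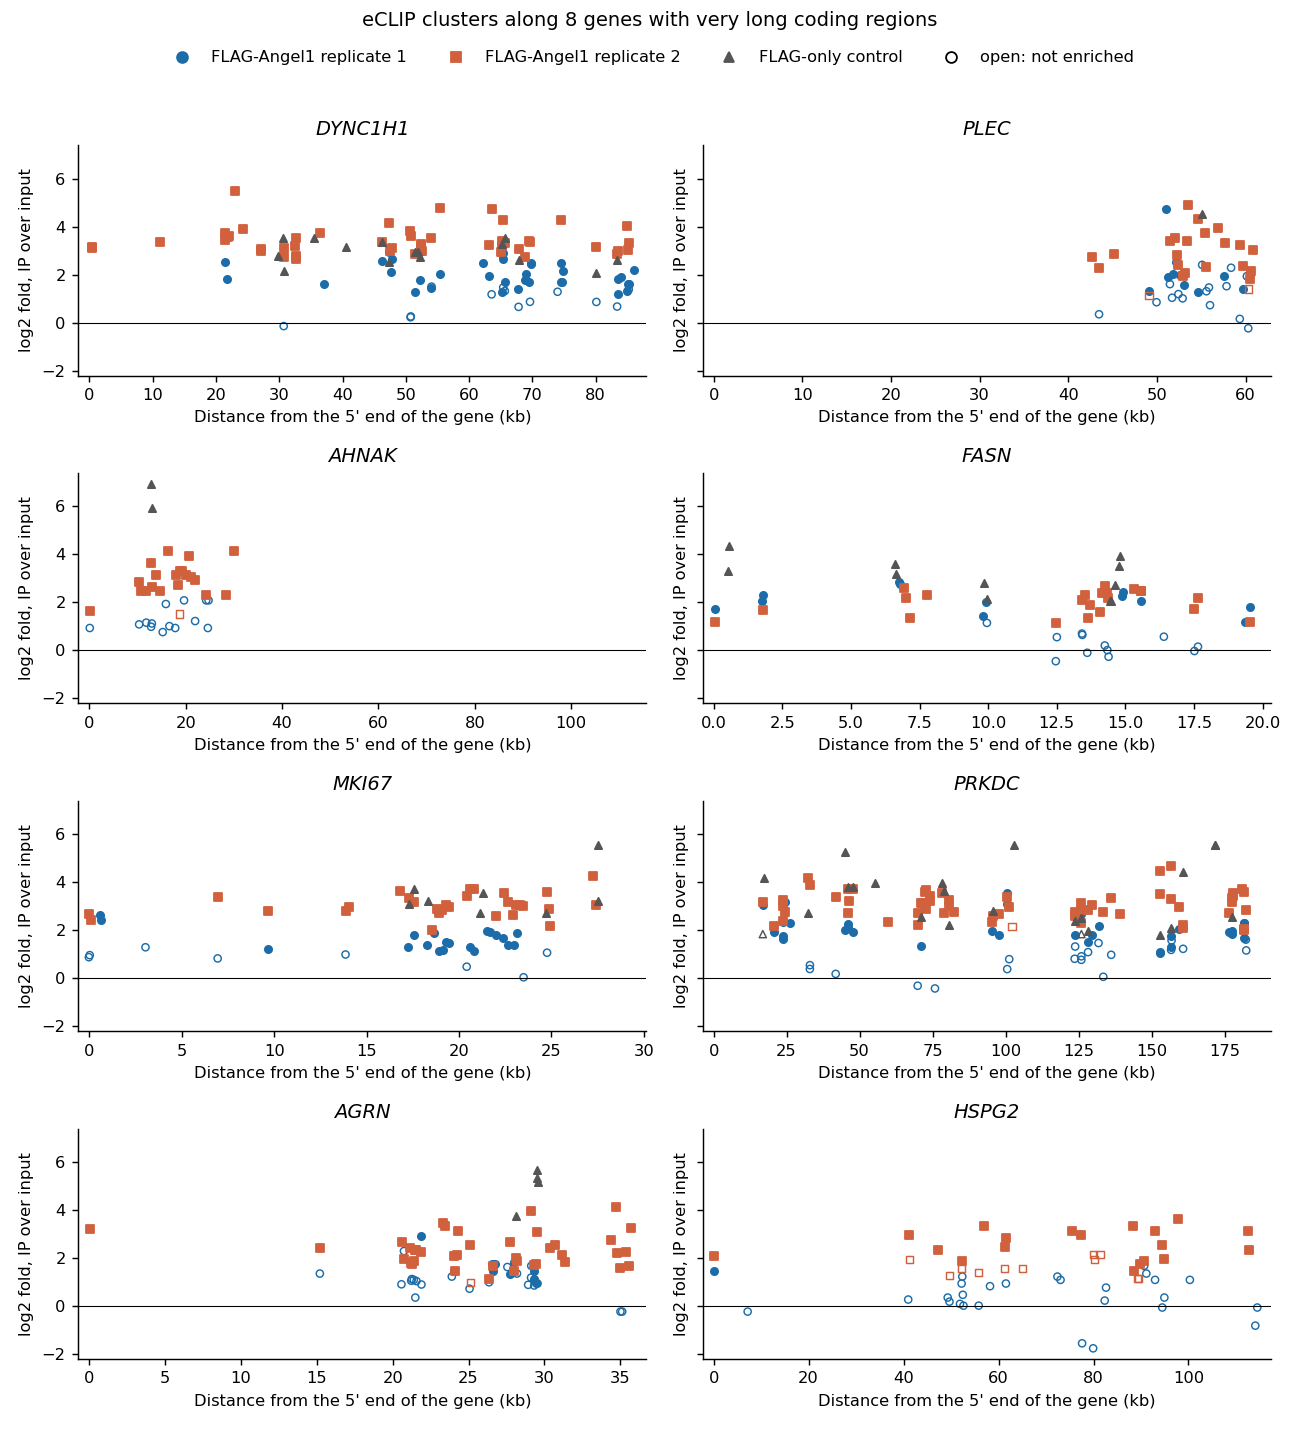
Log2 fold of IP over input (vertical axis) of each of the 592 clusters against the distance of its centre from the 5′ end of the gene in kb (horizontal axis), with 1 panel per gene. Circles are FLAG-Angel1 replicate 1, squares replicate 2 and triangles the control, filled where enriched. Clusters of PLEC gather toward the 3′ end of the genomic span and those of AHNAK toward the 5′ end. Those of DYNC1H1 and PRKDC are spread over most of the span. Positions on the mRNA were not determined.

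FASN encodes fatty acid synthase, the multifunctional enzyme that builds palmitate. On chromosome 17 from 80036214 to 80056106 on the minus strand, the shortest span of the 8, it held 24 clusters in replicate 1 (12 enriched), 22 in replicate 2 (all enriched) and 11 in the control (all enriched). Per 10 kb of span, introns included, these are 12.1, 11.1 and 5.53 clusters. They are the densest of the 8 genes in replicate 1 and in the control and close to AGRN in replicate 2. In FASN the median log2 fold was 1.17, 2.18 and 3.18 in replicate 1, replicate 2 and the control. No control cluster of FASN overlapped a cluster of replicate 2 and only 2 of the 11 overlapped one of replicate 1. The cluster with the most IP reads of all members in a FLAG-Angel1 library lay at the 5′ end of FASN in replicate 1, with 540 IP and 35 input reads and a log2 fold of 1.71 (interval 1.22 to 2.25).

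MKI67 and PRKDC act in the nucleus. MKI67 encodes Ki-67, the proliferation marker that coats mitotic chromosomes. On chromosome 10 from 129894923 to 129924468 on the minus strand, it held 28 clusters in replicate 1 (20 enriched), 30 in replicate 2 (all enriched) and 8 in the control (all enriched), with median log2 folds of 1.35, 3.02 and 3.22. Clusters covered 8.80% of its span in replicate 1 and 8.16% in replicate 2, more than in any other of the 8 genes, against 1.70% in the control. The span counts introns too, since exons were not located. In nt, MKI67 clusters covered 2600 in replicate 1 and 2411 in replicate 2, below PRKDC in both (2681 and 2730). Those of DYNC1H1 covered 2668 and 2225. PRKDC encodes the catalytic subunit of DNA-dependent protein kinase, which acts in the repair of DNA double-strand breaks by end joining. On chromosome 8 from 48685669 to 48872743 on the minus strand, it held the most clusters of the 8 genes in every library, 52 in replicate 1 (32 enriched), 61 in replicate 2 (60 enriched) and 23 in the control (21 enriched). For PRKDC the median log2 fold was 1.65 in replicate 1, 3.01 in replicate 2 and, for the control, 2.78, so that its control median lay below that of replicate 2.

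AGRN and HSPG2 encode secreted heparan sulfate proteoglycans of basement membranes, agrin, which organizes the neuromuscular junction, and perlecan. AGRN, on the plus strand of chromosome 1 from 955503 to 991499, held 31 clusters in replicate 1 (10 enriched), 40 in replicate 2 (39 enriched) and 4 in the control (all enriched). Its median log2 fold was 1.12 for replicate 1, 2.22 for replicate 2 and 5.25 for the control. The control clusters of AGRN had 7 IP and 8 input reads from 983616 to 983680 (log2 fold 3.76), 13 and 4 reads from 985005 to 985024 (5.65), 13 and 5 reads from 985025 to 985060 (5.33), and 14 and 6 reads from 985061 to 985097 (5.18), and the last 3 abutted one another.

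HSPG2, on chromosome 1 from 22148737 to 22263750 on the minus strand, had the lowest median fold of the 8 genes in each FLAG-Angel1 replicate. It held 28 clusters in replicate 1 (1 enriched), 30 in replicate 2 (19 enriched) and none in the control. The median log2 fold was 0.41 in replicate 1, with a range of -1.76 to 1.77 and 6 clusters below 0, and 2.12 in replicate 2. The median IP reads per cluster were at least 10.5 in replicate 1, where the reads of 17 of the 28 clusters are known as a minimum only because their P is 1, and 9 in replicate 2. The interval of the lowest fold in replicate 1, taken at that minimum of reads, lay wholly below 0 (-2.87 to -0.61), where the authors' P does not score the fold. The enriched cluster of replicate 1 was its deepest, with 77 IP and 6 input reads, and lay at the 5′ end of the gene with a log2 fold of 1.45 (interval 0.26 to 2.94). The deepest HSPG2 cluster of replicate 2, with 31 IP and 8 input reads and a log2 fold of 2.10, lay at the same place.

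**Figure D2:**
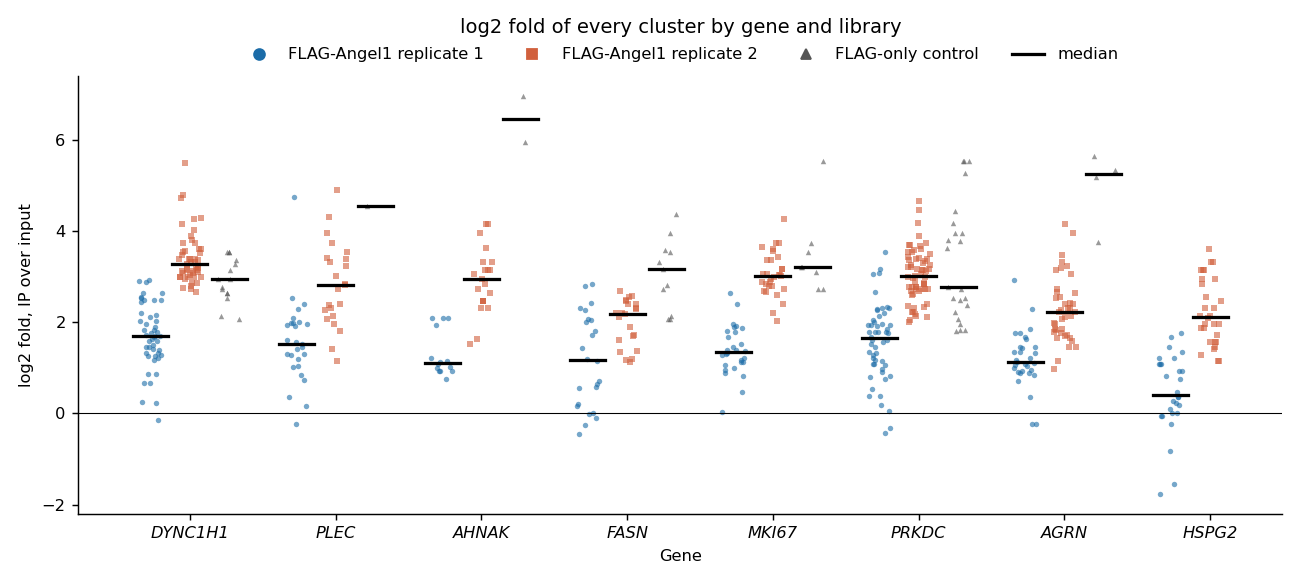
Log2 fold of IP over input (vertical axis) of every cluster by gene (horizontal axis) and library, with circles for FLAG-Angel1 replicate 1, squares for replicate 2, triangles for the control and black bars for medians. In all 8 genes the median of replicate 2 lies above that of replicate 1, by 1.01 in FASN to 1.85 in AHNAK. Over all clusters of the libraries it lies above by 1.16.

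The order of the 8 genes by IP reads in clusters was nearly the same in both FLAG-Angel1 replicates. DYNC1H1 and PRKDC led, with 1124 and 1069 RPM in replicate 1 and 1186 and 1345 in replicate 2, and they changed places between the replicates. MKI67 followed with 870 and 705, FASN with 778 and 524, AGRN with 471 and 401, and PLEC with 358 and 168. HSPG2 with 121 and 122 and AHNAK with 82.1 and 129 came last and also changed places. The sums of replicate 1 hold clusters whose reads are a minimum, 17 in HSPG2 and at most 4 in each other gene, so that the sums of genes with such clusters, above all the 121 of HSPG2, are lower bounds. The values of both replicates overlapped between DYNC1H1 and PRKDC, between MKI67 and FASN, and between HSPG2 and AHNAK, so that these neighbors did not differ beyond the spread of the replicates. The sums also move with how much was called, and the clusters of the 8 genes covered 15374 nt in replicate 1, 13657 nt in replicate 2 and 3263 nt in the control. In the control, PRKDC led with 505 RPM, followed by DYNC1H1 with 291, FASN with 272, AGRN with 224, MKI67 with 153, AHNAK with 76.3 and PLEC with 14.3.

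Scaled to library size, the input reads in called clusters were higher in replicate 1 than in replicate 2. The clusters of each of the 8 genes had this order, for example 385 against 119 RPM in DYNC1H1, 359 against 87.8 in MKI67 and 34.6 against 17.8 in AHNAK. Unscaled, the clusters of the 8 genes held at least 1418 input reads in replicate 1 and 1934 in replicate 2. Summed over the 8 genes, input RPM were 1964 in replicate 1 and 688 in replicate 2, and IP RPM were 4873 and 4579. Over all clusters of the libraries the same order held, with input RPM of 471060 and 211817 and IP RPM of 869030 and 621217. These library sums are lower bounds, since reads are a minimum where P is 1, in 56236 clusters of replicate 1 and 4714 of replicate 2. The lowest input value of a cluster, 1 read, stands for 1.38 RPM in replicate 1 and 0.36 in replicate 2.

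**Figure D3:**
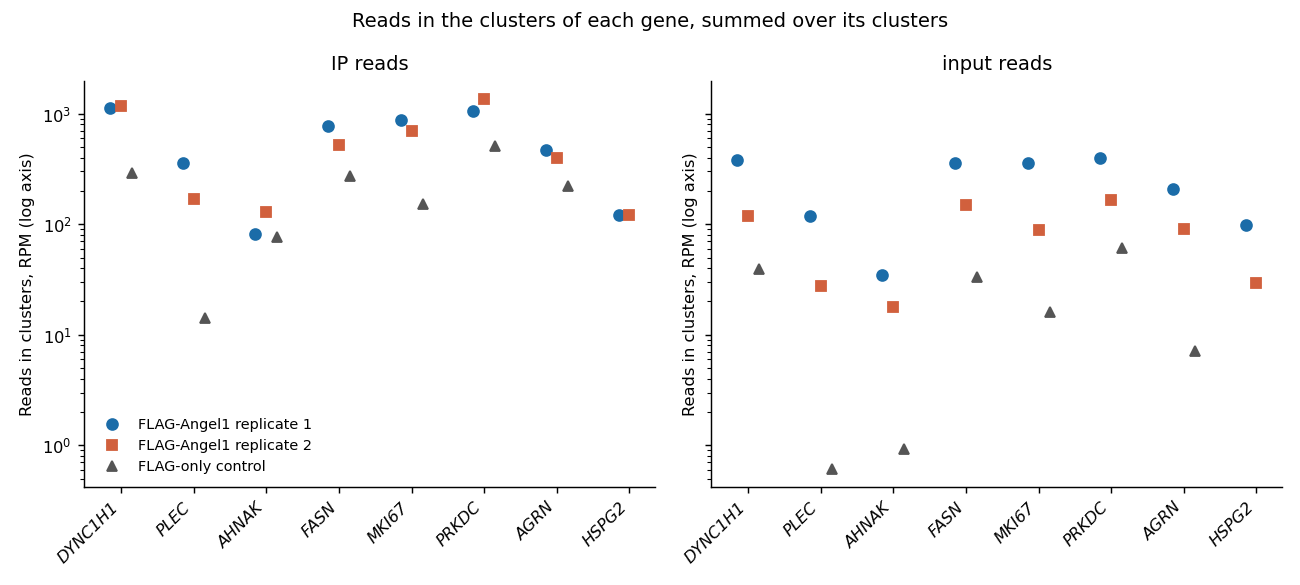
Inferred reads in clusters per 1000000 library reads, RPM (vertical axis, log scale) of each gene, summed over its clusters, for IPs (left) and inputs (right). Circles are FLAG-Angel1 replicate 1, squares replicate 2 and triangles the control. IP values of the replicates nearly coincide for DYNC1H1 (1124 and 1186), the HSPG2 value of replicate 1 is a lower bound, and input values of replicate 1 lie above those of replicate 2 in all 8 genes.

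Of the 252 clusters of replicate 1, 164 overlapped, on the same strand, a cluster of replicate 2 (65.1%, interval 59.0% to 70.7%), against 52.6% of all clusters of that library. Of the 276 clusters of replicate 2, 155 overlapped a cluster of replicate 1 (56.2%, interval 50.3% to 61.9%), against 54.6% of all, so that only the share of replicate 1 lay apart from that of its library. By gene, the share in replicate 1 was highest for AGRN (24 of 31) and lowest for HSPG2 (10 of 28) and AHNAK (7 of 14). Each overlapping cluster of replicate 1 was paired with the replicate 2 cluster that overlapped it most. Replicate 2 had the higher fold in 151 of the 164 pairs. The differences on the log2 scale had a median of 1.52 and an SD of 1.00. Over all clusters of the libraries, the median fold of replicate 2 lay above that of replicate 1 by 1.16. The share over all overlapping pairs of the libraries was not computed. All 34 pairs of DYNC1H1, all 21 of MKI67 and all 7 of AHNAK had the higher fold in replicate 2, whereas 4 of 15 pairs of FASN and 4 of 24 pairs of AGRN had it in replicate 1.

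Over the 164 pairs, the log2 folds of the replicates were weakly correlated (Pearson 0.233, Spearman 0.184), whereas their log2 IP reads were correlated more closely (Pearson 0.703, Spearman 0.636). These values describe pairs of clusters that share libraries, genes and, where clusters abut, reads. Within single genes the correlation of IP reads varied, from a Pearson of 0.06 over the 15 pairs of FASN to 0.63 over the 7 pairs of AHNAK, with 0.61 over the 39 pairs of PRKDC, and that of the folds was below 0 in PRKDC (-0.29) and above 0 in DYNC1H1 (0.29).

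**Figure D4:**
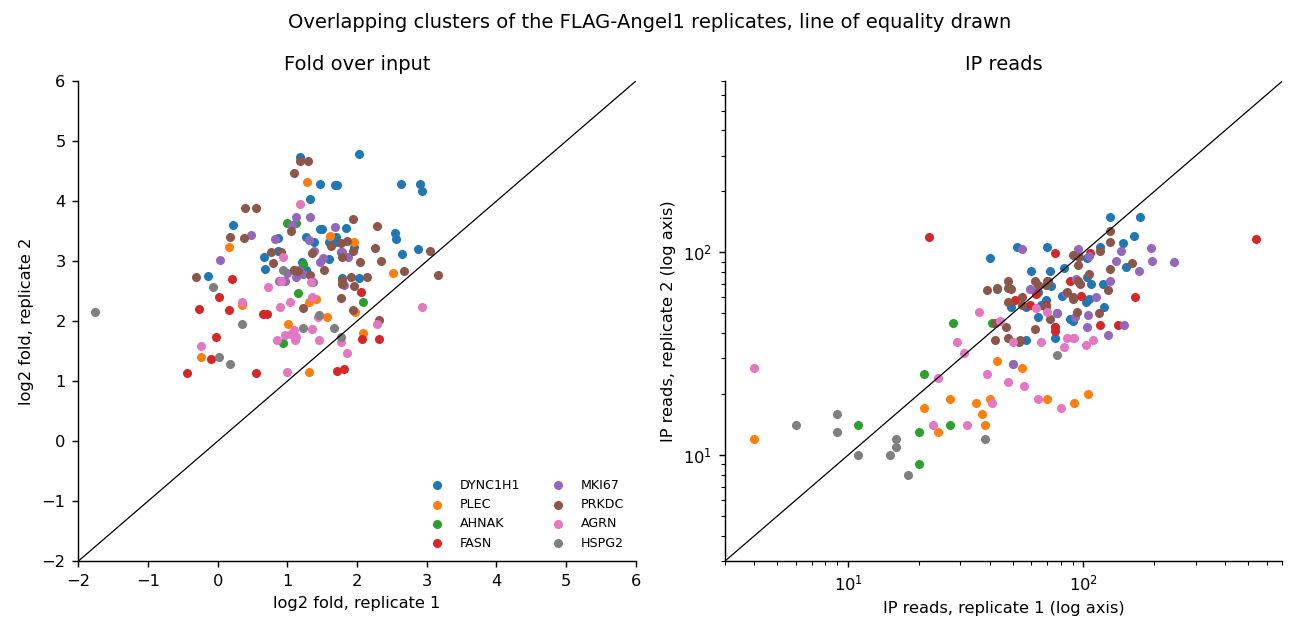
The 164 pairs of overlapping clusters of the FLAG-Angel1 replicates, coloured by gene, with the log2 fold of replicate 2 against that of replicate 1 (left) and IP reads of replicate 2 against those of replicate 1 on log axes (right). The line marks equal values. Of the pairs, 151 lie above it for the fold, while IP reads follow the order of the genes in both replicates.

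Overlapping clusters of both replicates were merged into a reproducible peak when each had a log2 fold above 0 and passed the authors' P threshold of 0.001. The 8 genes held 26 of the 2243 reproducible peaks of the series, 9 in DYNC1H1, 9 in PRKDC, 5 in MKI67 and 3 in FASN. They comprised 31 of the 252 clusters of replicate 1, where 3.20% of all clusters lay in reproducible peaks, and 36 of the 276 of replicate 2, where 3.54% did. In both replicates the clusters of the 8 genes held more inferred IP reads than clusters at large. For replicate 1 the reads at large are a minimum in 56236 of 102843 clusters. Shares in peaks were not compared at matched reads, here or at the threshold of 0.05. PLEC, AHNAK, AGRN and HSPG2 held no reproducible peak. In replicate 1, 38 member clusters passed the threshold of 0.001 (background 4.22%), against 205 in replicate 2 (background 17.0%) and 25 in the control (background 64.5%). None of the clusters of AHNAK, AGRN and HSPG2 and 1 of those of PLEC passed it in replicate 1. With the threshold set to 0.05 in both replicates, 73 of 6843 peaks of the series lay in the 8 genes. They comprised 85 of the 252 clusters of replicate 1, against 8.98% of all its clusters, and 88 of the 276 of replicate 2, against 9.75%. There were 20 in DYNC1H1, 21 in PRKDC, 14 in MKI67, 4 in FASN, 7 in AGRN, 6 in PLEC, 1 in HSPG2 and 0 in AHNAK.

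For each gene with such peaks, the peak whose weaker replicate had the highest log2 fold is given. Where a peak merged several clusters of a replicate, the reads, fold and interval are those of its cluster with the highest fold. In DYNC1H1 it spanned 68 nt on chromosome 14 from 102478215 to 102478282. It had 72 IP and 2 input reads in replicate 1, a log2 fold of 2.94 (interval 1.03 to 6.01), and 81 and 5 reads in replicate 2, a log2 fold of 4.16 (interval 2.88 to 5.82). The control had a cluster of 3 IP and 8 input reads there with a log2 fold of 2.54. In PRKDC the peak spanned 115 nt on chromosome 8 from 48746842 to 48746956, with 90 IP and 3 input reads in replicate 1 (log2 fold 2.67, interval 1.08 to 4.98) and 97 and 15 reads in replicate 2 (log2 fold 2.84, interval 2.05 to 3.73). The control cluster over it held 4 IP and 11 input reads, a log2 fold of 2.49. The control folds had wide intervals, -0.01 to 4.60 in DYNC1H1 and 0.39 to 4.25 in PRKDC, and these overlapped the intervals of both replicates at each peak.

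The peaks of the other genes had no control cluster over them. In MKI67 the peak ran over 306 nt on chromosome 10 from 129901297 to 129901602, the widest of the 26. It had 137 IP and 8 input reads in replicate 1 (log2 fold 1.86, interval 0.85 to 3.10) and 91 and 12 reads in replicate 2 (log2 fold 3.07, interval 2.19 to 4.07). In FASN the peak covered 28 nt on chromosome 17 from 80054301 to 80054328, with 140 IP and 6 input reads in replicate 1 (log2 fold 2.31, interval 1.15 to 3.78) and 44 and 15 reads in replicate 2 (log2 fold 1.70, interval 0.82 to 2.65). In all 3 reproducible peaks of FASN replicate 1 had the higher fold, as it had in 1 of the 9 of PRKDC and in none of DYNC1H1 and MKI67. Of the 26 peaks, 10 lay over a control cluster (38.5%, interval 22.4% to 57.5%), beside 24.5% of all 2243, with 5 in PRKDC, 4 in DYNC1H1 and 1 in MKI67.

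Many control clusters of the 8 genes lay at places also found with FLAG-Angel1. Of the 64, 35 overlapped a cluster of replicate 1 (54.7%, interval 42.6% to 66.3%), against 40.9% of all control clusters, and 35 overlapped one of replicate 2, against 40.6%. Conversely, 40 of the 252 clusters of replicate 1 (15.9%, interval 11.9% to 20.9%) lay over a control cluster, against 2.58% of all, and 39 of the 276 of replicate 2 (14.1%, interval 10.5% to 18.7%), against 2.66% of all. PRKDC gave the largest part of these, with 17 clusters of replicate 1 and 21 of replicate 2. No HSPG2 cluster, and no replicate 2 cluster of PLEC or FASN, lay over a control cluster. With 209788 IP reads in the control, a place without a control cluster is not shown to lack reads. The shares of FLAG-Angel1 clusters over a control cluster were not compared with clusters of as many IP reads.

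At 31 places of the 8 genes a control cluster was overlapped by clusters of both replicates, and their IP RPM were set side by side, although the clusters differ in width between libraries. These places were selected by a control cluster, which held at least 3 IP reads in the 8 genes (14.3 RPM, upper limit 41.8), so that low control values cannot appear among them. The control was the lowest at 16 of these places, the highest at 11 and in between at 4. In MKI67 it was the lowest at all 3 places, in DYNC1H1 at 6 of 9 and in PRKDC at 7 of 13. In AGRN it was the highest at all 4, of which 3 abut, and in AHNAK at both, which abut as well. At 2 places of AGRN the interval of the control lay wholly above those of both replicates. One of them, from 985061 to 985097, had 66.7 RPM in the control (interval 36.5 to 112), 18.5 in replicate 1 and 20.8 in replicate 2.

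**Figure D5:**
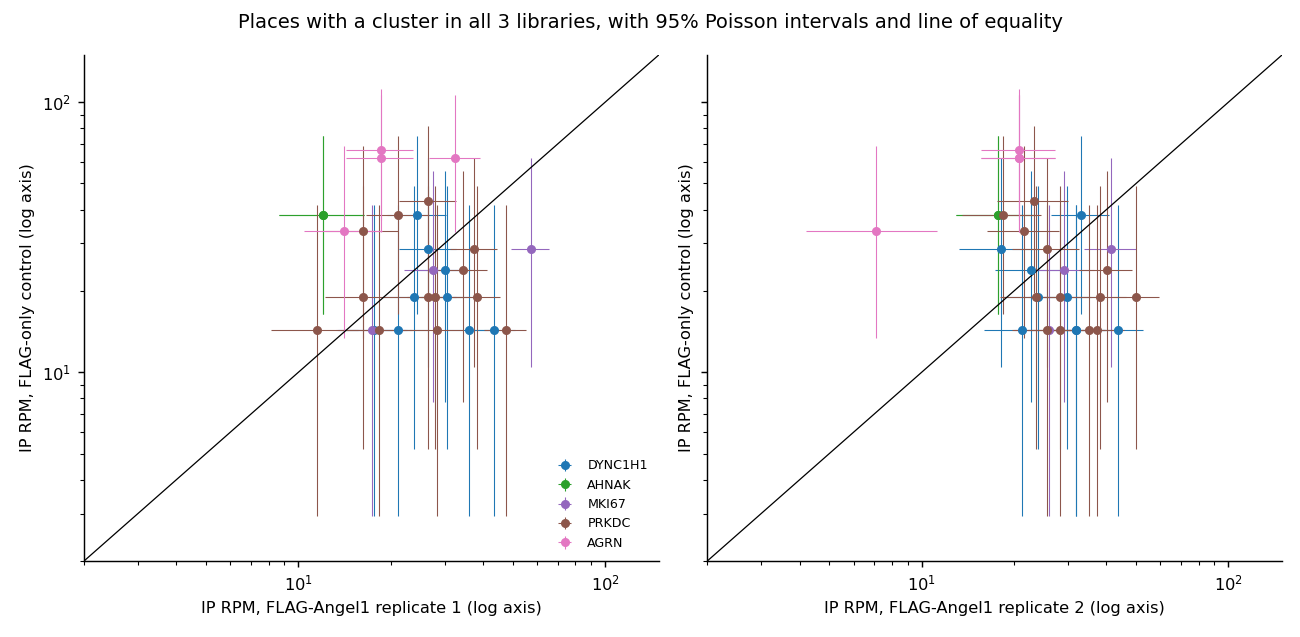
IP RPM in the control (vertical axis, log scale) against those of FLAG-Angel1 replicate 1 (left) and replicate 2 (right, log scale) at the 31 places with a cluster in all 3 libraries, with 95% Poisson intervals of counting error and the line of equal values. Points of AGRN and AHNAK lie above the line in both panels and those of MKI67 below it.

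The clusters were unevenly placed along several of the genes. Distances are along the genome from the 5′ end of the span, and exons were not located, since no GRCh37 annotation was used here. In PLEC, 46 of the 50 FLAG-Angel1 clusters lay in the last 25% of the span, and none had its centre in the first 42.7 kb. In AHNAK, 33 of the 35 lay in the first 25%, and the remaining 83.3 kb toward the 3′ end of the span held none. As background, AHNAK is known to carry most of its coding sequence in a single very large exon, and plectin in large exons near its 3′ end. The shortest stretch holding 80% of the FLAG-Angel1 clusters was 9.12 kb in PLEC (14.8% of the span), 12.9 kb in AHNAK (11.4%), 10.1 kb in AGRN (28.1%), 50.6 kb in HSPG2 (44.0%), 13.5 kb in MKI67 (45.8%), 10.9 kb in FASN (54.6%), 52.6 kb in DYNC1H1 (60.9%) and 136 kb in PRKDC (72.8%).

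Along DYNC1H1 the replicates differed in placement. With the span divided into 4 equal parts, replicate 1 had 1, 3, 14 and 30 of its 48 clusters in these parts from the 5′ to the 3′ end, whereas replicate 2 had 5, 13, 15 and 16 of 49. PRKDC likewise had 4 clusters of replicate 1 in its second part against 16 of replicate 2. In AGRN and FASN these parts held similar numbers in both replicates.

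Clusters centred within 500 nt of the 5′ end of the span were present in both replicates for FASN, MKI67, AHNAK and HSPG2, in replicate 2 only for DYNC1H1 and AGRN, and in neither for PLEC and PRKDC. In FASN this cluster had 540 IP and 35 input reads in replicate 1 and 116 and 57 reads in replicate 2, with log2 folds of 1.71 and 1.17, and it formed a reproducible peak. In HSPG2 both clusters were enriched, while in AHNAK (27 and 3 reads in replicate 1, 14 and 5 in replicate 2) and MKI67 enrichment was limited to replicate 2. The control had no cluster centred within this distance in any of the 8 genes, and its nearest, in FASN, were centred 0.52 and 0.56 kb from the 5′ end. On the opposite strand the 8 spans held 1 cluster in all libraries together, in AHNAK in replicate 1, with 3 IP reads and a log2 fold of -0.65.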

How the data were processed

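The 3 IP libraries were analysed from the authors' cluster lists, and the inputs entered through these lists only. Per the labels, the Yeo laboratory's eCLIP pipeline was used with GRCh37, and the submitters' processing notes name cutadapt, STAR, SAMtools and UMI-tools without versions. Clusters were called by the authors in each library on its own. They deposited for each cluster a log2 fold (IP against input) and the −log10 of its P, which is capped at 400 and is 0 where P is 1.

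From these values the reads were inferred here. The steps of the log2 fold, with the most frequent taken as 3 IP reads over 1 input read, gave the ratio of library sizes, and the P fixed whole-number sizes and the reads of each cluster (exact test where an observed or expected number was under 5, otherwise chi-square with Yates' correction). The fold was a ratio of whole reads in 99.7% of clusters of the control, 99.99% of replicate 1 and 99.97% of replicate 2 (tolerance 1e-11), and the P fixed the multiple for at least 99.98% of clusters with a P below 1 and above its cap. Where P was 1, as for 30 of the 252 clusters of replicate 1 in the 8 genes and 56236 of all its 102843, the reads are a minimum.

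Overlaps needed 1 nt on the same strand. Calculations used Python 3.11.15 with numpy 2.4.6, pandas 2.3.3 and scipy 1.17.1, and figures matplotlib 3.10.9. The recovery of reads and the overlaps were tested on simulated data. The 8 genes, thresholds and lists were chosen with earlier results of these data known. Peaks were named by a rule, in each gene the reproducible peak with the largest lower log2 fold, and control clusters where a gene had 5 or fewer. Alternatives covered thresholds on P and fold, the overlap required, the joining of abutting clusters, the control overlap, each replicate alone, averages of the fold and a minimum of 30 IP reads. Exons, coding sequence, peptide features, sequences of peaks and other genes with long coding regions were not analysed here, because no GRCh37 genome or annotation was used.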

Additional observations from a re-analysis of the deposited data

How the results depend on the processing

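At the threshold of 0.001 the enriched clusters of the 8 genes numbered 38 in replicate 1 (121 at 0.05), 205 in replicate 2 (260) and 25 in the control (62), and when a log2 fold of 3 or more was required too, 2, 111 and 24. With at least 30 IP reads required, a choice made once the values were known, they numbered 120, 172 and 0. The other alternatives (abutting clusters joined, clusters wholly inside the span, clusters over a control cluster left out) moved these counts by less than 1.5 times. The 26 reproducible peaks became 73 at the threshold of 0.05, 0 where both replicates had to reach a log2 fold of 3, 16 without those over an enriched control cluster and 18 with reciprocal overlap of 50%. With 1 replicate left out, when no reproducibility is required, clusters past 0.001 numbered 38 to 205, 205 without replicate 1. These changes follow from admitting more or fewer clusters. No share over all clusters was computed for the log2 fold of 3 or for reciprocal overlap of 50%. The counts at these settings therefore have no background beside them.

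A reciprocal overlap of 50% lowered the share of replicate 1 clusters found in replicate 2 from 65.1% to 34.5%, and that of replicate 2 in replicate 1 from 56.2% to 31.5%, while admitting enriched partners alone gave 32.2% for the latter. The median log2 fold of 1.35 in replicate 1 lay between 1.26 and 1.40 and that of 2.85 in replicate 2 between 2.85 and 2.89 under 3 other averages. With 1 cluster kept per run of abutting clusters, IP reads per 1000000 library reads in the 8 genes were 3926 in replicate 1 (4873) and 4214 in replicate 2 (4579), and PLEC (358) passed AGRN (328) in replicate 1.

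No paired analysis was possible because the results come from no test, and each fold already sets an IP against its own input. Alternatives by annotation were not run, since no GRCh37 annotation was used. The smallest input was that of replicate 1, with 722085 reads, and the smallest IP that of the control, with 209788 reads. How far depth bears on the clusters called was not tested. A place without a control cluster is not shown to lack reads.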
